A study of Caenorhabditis elegans with 2 samples.

Results

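The regions described here are 791 binding peaks of the nuclear hormone receptor NHR-90 in the nematode Caenorhabditis elegans that lie just below the limit of the published reproducible list on the ce11 genome. They were chosen by measured values: the 30000 peaks called from both replicates together were ordered by their signal, and ranks 1442 to 2232 were taken. All 791 lie on nuclear chromosomes. Ranks 1 to 1441 are exactly the peaks of the ce11 list that passed the irreproducible discovery rate (IDR) filter, and 1422 of those are nuclear. On the older ce10 build the IDR list holds 2232 peaks, which are the first 2232 of the ce10 pooled list. The ranks described here thus lie inside the filter on ce10 and outside it on ce11. Peaks were not matched between the builds by position.

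The data are chromatin immunoprecipitation sequencing (ChIP-seq) of strain OP484, whole hermaphrodites carrying NHR-90 fused at its C terminus to GFP and FLAG, recovered with an antibody against GFP. A separate label names nhr-90 as the antibody. The animals were young adults, 64 h on from a synchronized start as starved first-stage larvae, and formed 1 group with 2 biological replicates. Neither the promoter nor the tissues that express the fusion are given in the sources used here. In whole animals strong binding in few cells and weak binding in many cannot be told apart.

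Nuclear hormone receptors are transcription factors with a zinc-finger DNA-binding domain and a domain that can bind small lipophilic ligands, and the family is greatly expanded in nematodes. A ChIP-seq peak marks where fragments bound to the tagged protein pile up, and its summit is the position of the highest pile. IDR compares how 2 replicates rank the same peaks and keeps those whose ranks agree, so it sets a length for the pooled list. tRNA genes, read by RNA polymerase III from promoters inside the gene, and genes of snoRNAs and snRNAs, which guide RNA modification and take part in splicing, are short genes that appear often among the strongest peaks here.

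Below are 100-base windows centred on summits of members near a gene start, 1 for the GA repeat and 2 for each of 3 other motifs that were more frequent at the summits than beside them (tested further on). They were taken from the highest-ranked members with the whole window outside protein-coding exons and a gene not already shown, and the window of cyc-2.1 lies near the start of tctn-1 too. Each reads 5′ to 3′ on the strand of its gene in the WBcel235 (ce11) genome of RefSeq, with the motif in capitals on whichever strand it fell.
miz-1, a GA repeat (GAGAGAG), IV:10821905-10822004, plus strand: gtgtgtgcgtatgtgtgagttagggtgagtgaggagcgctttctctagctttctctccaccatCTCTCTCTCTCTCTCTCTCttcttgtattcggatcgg
scd-1, a GATA site (TGATAA), X:12509480-12509579, minus strand: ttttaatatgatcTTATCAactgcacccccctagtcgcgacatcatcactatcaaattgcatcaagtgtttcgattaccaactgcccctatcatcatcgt
cnp-3, a GATA site, X:17138242-17138341, minus strand: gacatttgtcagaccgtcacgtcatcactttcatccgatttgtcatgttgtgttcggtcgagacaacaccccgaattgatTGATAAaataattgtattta
bcat-1, an E-box (CACGTG), X:12876962-12877061, plus strand: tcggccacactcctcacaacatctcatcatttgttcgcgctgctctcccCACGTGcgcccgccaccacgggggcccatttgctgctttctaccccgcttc
F42A10.7, an E-box, III:6179213-6179312, minus strand: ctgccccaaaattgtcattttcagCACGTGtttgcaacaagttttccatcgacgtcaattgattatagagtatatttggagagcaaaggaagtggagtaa
F09C8.2, a GC box (GGGCGG), X:16147791-16147890, minus strand: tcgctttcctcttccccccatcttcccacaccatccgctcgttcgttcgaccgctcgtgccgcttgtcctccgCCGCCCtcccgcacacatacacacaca
cyc-2.1, a GC box, IV:4748555-4748654, minus strand: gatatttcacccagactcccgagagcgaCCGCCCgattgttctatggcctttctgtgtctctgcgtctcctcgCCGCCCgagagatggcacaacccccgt

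The smaller set of members at tRNA genes is shown by the genes themselves, with the GGTTCGA core of the internal B box, which RNA polymerase III factors recognise, in capitals. The first is a lysine tRNA gene whose sequence occurs in 14 genes, and the second, C16H3.7, a valine tRNA gene whose sequence occurs in 1.
WBGene00014551, V:13027028-13027100, minus strand: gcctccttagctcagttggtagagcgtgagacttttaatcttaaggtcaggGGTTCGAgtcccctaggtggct
C16H3.7, X:17611289-17611361, plus strand: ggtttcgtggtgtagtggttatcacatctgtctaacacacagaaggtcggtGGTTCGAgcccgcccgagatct

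Member signal, the strength value the authors' caller gave each peak, ran from 98.9 at rank 1442 to 76.2 at rank 2232. Its scale is not stated and no read counts accompany the lists, so the depth behind a peak is unknown. Nothing in the signal marks either end. The last peak of the IDR list, at II:13335320-13335769 with an offset of −2736 bp from the start of mrpl-20 (negative is upstream), had a signal of 98.8983, and the first member, at X:16677412-16677861 in a coding exon of F22H10.3, had 98.8917. At the lower end the last member, in an intron at an offset of −211 bp from the start of T02E1.2 on chromosome I, had 76.19, and the next peak, 151 bp past the start of herd-1 on chromosome III, had 76.1849. All 791 carried the highest −log10 q-value in the list, 2.79122, so the q-value did not order them. Most members (757) were 450 bp wide, and the widths ran from 113 to 1202 bp.

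The pooled list on ce10 held nearly the same values at these ranks. The largest difference in signal at equal rank was 0.254% and the median 0.000143%, and the numbers of members on each of the 6 chromosomes were identical. The chromosome was the same at 617 of the 791 ranks. The replicate 2 lists differed in length, with 26622 peaks on ce11 and 26894 on ce10. Whether that difference bears on the length of the IDR list was not tested.

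Nearly every member had a counterpart in both replicates when any overlapping replicate peak counted. Of the 791, 777 (98.2%) overlapped a replicate 1 peak, 789 (99.7%) a replicate 2 peak and 775 (97.98%, exact 95% interval 96.7 to 98.8) both. The share was 98.9% in the IDR ranks and 98.2% in the 791 ranks below the members. Overlap with lists of 30000 and 26622 peaks therefore hardly separated the 3 sets of ranks. The 14 members without a replicate 1 peak included summits at the start of the receptor gene nhr-178 (offset −13 bp), at the valine tRNA gene C16H3.7 printed above, and at 2 snRNA genes named F54D8.7. The 2 without a replicate 2 peak lay near T05C7.4 and in an intron of chromosome III whose nearest start was that of epc-1.

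Rank in the replicates separated the sets. Both replicate peaks stood among the top 2232 of their own list for 239 members (30.2%), against 92.0% of the IDR ranks and 9.23% of the next ranks. For 46 members neither did. Of the 64 members that overlap a peak of the IDR ranks 59 counted as both, by any overlapping replicate peak, and of the other 727 members 180 (24.8%) did. Since the pooled signal chose the members, these shares are given as a description without a test. For ranks of single members the overlapping replicate peak with the nearest summit was taken. 1 replicate peak could then serve a pair of members: 2 members shared a replicate 1 peak and 12 a replicate 2 peak with another member, and 8 and 9 shared one with an IDR peak. Of the 775 members with both replicate peaks, 7 ranked within the top 1441 in both lists (3 of them overlapping an IDR peak), 290 in 1 list alone and 478 in neither. Replicate 1 alone reached that rank for 154 and replicate 2 alone for 136.

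Across these 775 members the replicate signals ran against each other (Spearman rho −0.59), a description only, since a fixed range of pooled signal leaves a peak that is high in one replicate little room in the other. Replicate 1 signal ran from 14.1 to 156 with a median of 50.8, and replicate 2 signal from 9.49 to 103 with a median of 36.6. The scale of the signals may differ between the replicate lists, so ranks within each list are used to compare them. At act-4, an actin gene with no IDR peak overlapping, signal was 74.1 in replicate 1, rank 919, and 9.76 in replicate 2, rank 25579. Wide gaps with no IDR peak overlapping also lay at members whose nearest start was that of ZK470.2 (ranks 783 and 23631) or zip-3 (17183 and 1120). Some other gaps lay beside stronger IDR peaks, with an IDR summit 201 to 204 bp away. Examples were the histone gene his-37 (ranks 647 and 18190), D2096.7 (2019 and 207) and the leucine tRNA gene WBGene00014380 (138 and 2578). The last had the highest replicate 1 signal of the members, 156. Which of the neighbours the replicate peak belongs to in such cases was not tested.

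**Figure D1:**
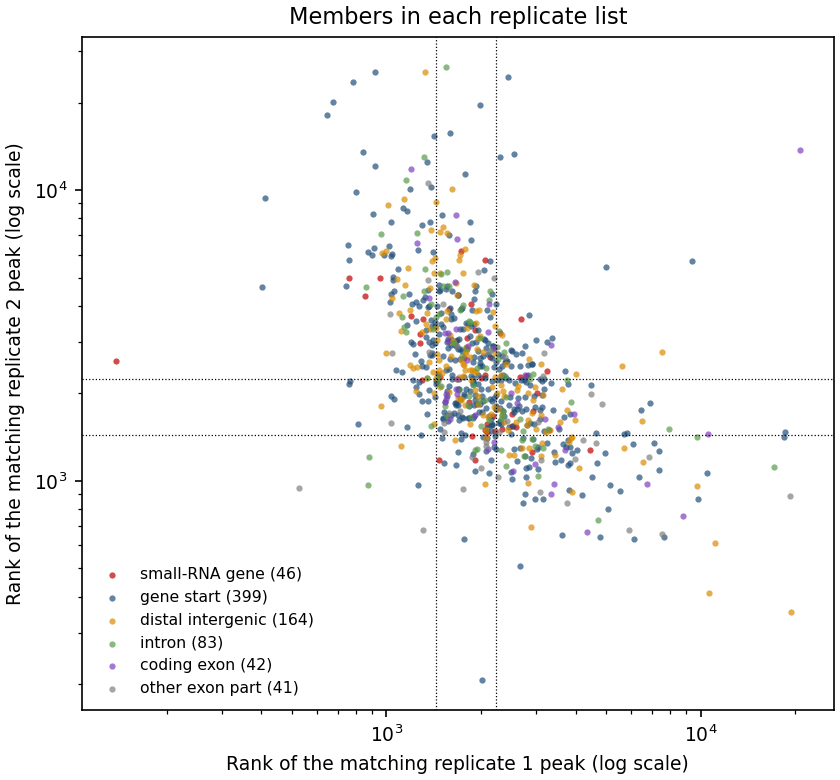
Each point is 1 of the 775 members with a peak in both replicates. The axes give the rank of the matching peak in the replicate 1 and replicate 2 lists (log scales), colours give position classes with their numbers, and dotted lines mark ranks 1441 and 2232. Only 7 points fall left of the first line and under it, and 478 lie beyond rank 1441 in both lists.

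The 5 members that ranked best in both replicates, by the worse of the 2 ranks, comprised 1 in a start window, 2 in introns and 2 in non-coding exon parts. Near hrg-1, a heme transporter gene, signal was 95.9 in replicate 1 and 55.5 in replicate 2, ranks 528 and 946. In an intron of plin-1, which encodes the lipid droplet protein perilipin, it was 75.7 and 54.5. In an intron 764 bp past the nearest start, that of the small heat-shock gene hsp-17, it was 75.4 and 49.2. Upstream of adss-1, for adenylosuccinate synthetase of purine synthesis, it was 63.7 and 54.6, and 3436 bp past the start of T02C5.1 it was 62.3 and 65.2, where the replicate 2 peak was also the match of the member at rank 1521. The summits near hrg-1 and hsp-17 belong to peaks that overlap a stronger peak of the IDR list.

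Overlap of that kind was uncommon. The intervals of 64 members (8.09%) overlapped a peak of the IDR ranks, with summits 199 to 824 bp apart (median 203 bp), and 97 (12.3%) had an IDR summit within 1000 bp. For a typical member the nearest IDR summit was 12689 bp away, the median.

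Position was then compared with the ranks above and below, since it did not enter the choice of members. Each summit was given 1 class, in this order: within 100 bp of a tRNA, snoRNA or snRNA gene; in a gene start window, from 1000 bp upstream to 500 bp downstream of a protein-coding transcript start; in a coding exon; in a non-coding exon part; in an intron; or distal intergenic. Of the members 49 (6.19%) were at a small-RNA gene, 403 (50.9%) at a gene start, 171 (21.6%) distal intergenic, 85 (10.7%) in introns, 42 (5.31%) in coding exons and 41 (5.18%) in non-coding exon parts. Shares at gene starts tested below count every summit in a window, whether or not a small-RNA gene was near. The 12 tests of 6 shares were two-sided Fisher's exact tests adjusted together by the Benjamini-Hochberg method. Their units are peaks of 1 pooled list, so a p-value does not measure the spread between animals.

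Members were at small-RNA genes far less often than the peaks of the IDR ranks. The share was 6.19% (49 of 791) against 32.8% (466 of 1422), an odds ratio of 0.137 (95% interval 0.1004 to 0.186, adjusted exact p = 1.22e-51). It was also below the 18.96% of the 791 ranks directly above the members (adjusted exact p = 1.25e-13). The next ranks below held 4.55% (36 of 791), which did not differ from the members beyond the threshold (odds ratio 1.38, 0.889 to 2.14, adjusted exact p = 0.358). In the same ranks of each replicate's own list this last difference did pass, at 7.96 against 4.18% in replicate 1 (adjusted exact p = 0.00507) and 8.09 against 4.30% in replicate 2 (adjusted exact p = 0.00701).

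The share fell gradually down the IDR ranks and stayed low from the members on. In bins of about 200 ranks the share at small-RNA genes was 60.1, 51.9, 41.0, 28.8, 22.8, 13.6 and 13.6% within the IDR ranks. Within the members it was 7.07, 7.11, 6.06 and 4.55%, and in the 4 bins below 5.56, 3.03, 5.08 and 4.55%. Over all 27768 lower nuclear peaks it was 0.717%, below the members (adjusted exact p = 5.46e-27), so it fell further beyond these bins. The boundary of the IDR list thus fell where the 13.6% of the last IDR bin gave way to 7.07%, with overlapping exact 95% intervals.

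**Figure D2:**
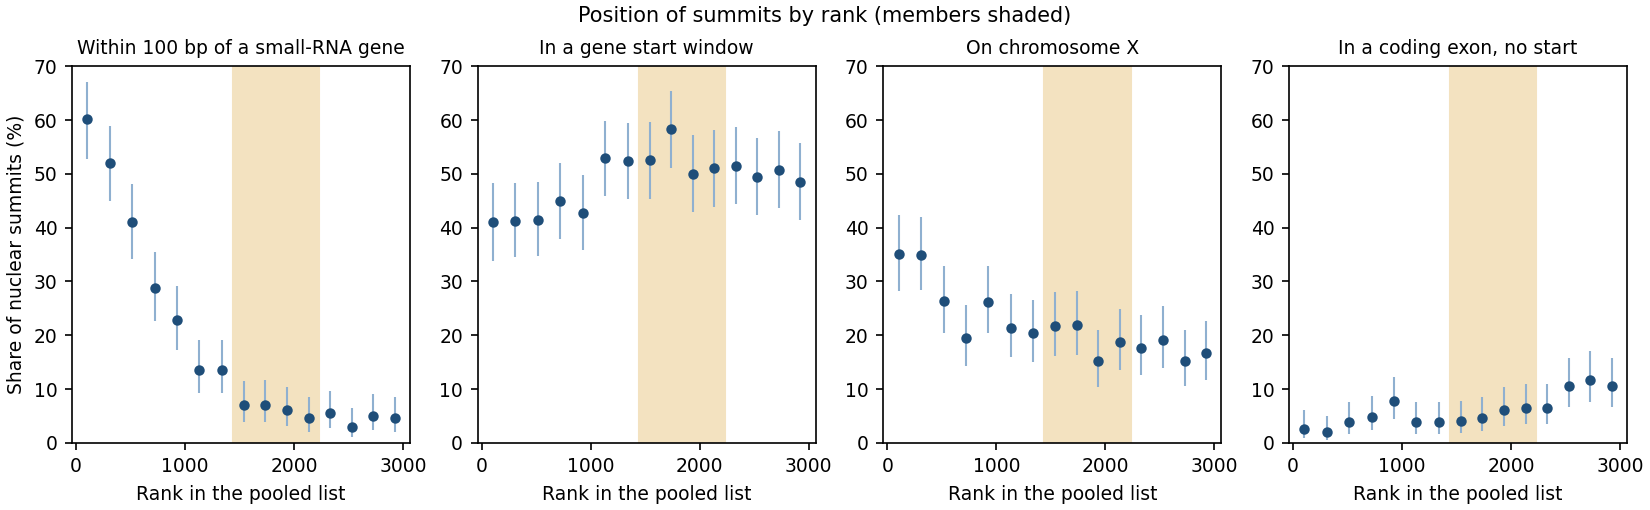
Share of nuclear summits (%) in 15 bins of rank in the pooled list, from rank 1 to 3023, for 4 properties, with exact 95% intervals as bars. The shaded span holds the 791 members. Summits within 100 bp of a small-RNA gene fell from 60.1% in the first bin to 7.07% in the first member bin, and the coding exon share was highest below the members.

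Gene starts made up more of the members than of the IDR ranks. The summit was in a start window for 419 members (53.0%), against 45.3% of the IDR ranks (odds ratio 1.36, 1.14 to 1.62, adjusted exact p = 0.00215) and 50.1% of the next ranks (adjusted exact p = 0.358). Once summits at small-RNA genes were set aside from both sets the shares were 54.3 and 51.9%, and the call was lost (adjusted exact p = 0.666). Against the 791 ranks directly above it was lost as well (53.0 against 48.0%, adjusted exact p = 0.224).

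Distal intergenic summits were 21.6% of members, 16.9% of the IDR ranks (odds ratio 1.35, 1.09 to 1.68, adjusted exact p = 0.0178) and 21.4% of the next ranks (adjusted exact p = 0.951). All lower ranks held 14.6%, below the members (adjusted exact p = 2.89e-07). Without small-RNA summits the direction against the IDR ranks turned, at 23.05 against 25.2%, with no call (adjusted exact p = 0.666). In neither replicate's own list did the comparison with the IDR ranks pass (adjusted exact p = 0.164 and 0.295). The 171 distal members lay a median of 2155 bp from the nearest start, and 45 were on chromosome X.

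Coding exons held a smaller share of the members than of the ranks below. Members had 5.31% of summits there (42 of 791) against 9.86% (78 of 791), an odds ratio of 0.515 (0.350 to 0.759, adjusted exact p = 0.00248). In bins of rank the share was 4.04, 4.57, 6.06 and 6.57% within the members, then 6.57, 10.6, 11.7 and 10.6% below. The last member bin and the first bin below thus held the same share, with no step at the boundary. Against the IDR ranks, at 4.15%, no difference passed (adjusted exact p = 0.358). In replicate 1's own list the difference from the ranks below passed at 8.85 against 14.4% (adjusted exact p = 0.00165), and in replicate 2's it did not, at 6.70 against 9.11% (adjusted exact p = 0.116). In both replicate lists, unlike the pooled list, the share also exceeded that of the IDR ranks (adjusted exact p = 1.95e-05 and 0.0323). Over all lower nuclear ranks coding exons held 22.04%. The intron share was 10.7% in members, 9.35% in the IDR ranks and 12.1% in the next ranks, with neither difference called (adjusted exact p = 0.358 and 0.469). In replicate 2's own list the intron share exceeded that of the IDR ranks (11.8 against 8.47%, adjusted exact p = 0.0315), and all lower ranks held 18.2%, above the members (adjusted exact p = 2.87e-08).

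**Figure D3:**
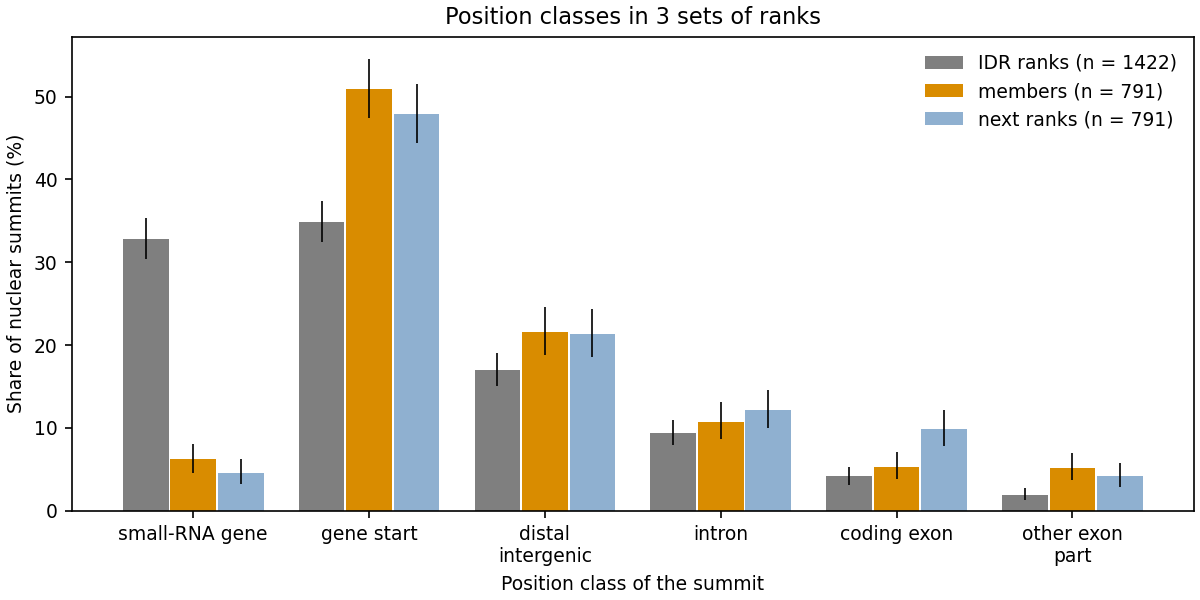
Share of nuclear summits (%) in 6 exclusive position classes for the IDR ranks (grey, n = 1422), the members (orange, n = 791) and the next ranks (blue, n = 791), with exact 95% intervals as bars. Small-RNA genes hold 32.8% of IDR summits and 6.19% of member summits, and coding exons 5.31% of members and 9.86% of the next ranks.

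Chromosome X carried 153 members (19.3%), and chromosomes I, II, III, IV and V carried 17.1, 17.3, 15.4, 14.5 and 16.3%. X makes up 17.7% of the nuclear genome and holds 13.7% of its protein-coding genes. Its share was 26.2% in the IDR ranks, above that of the members (odds ratio for members 0.678, 0.548 to 0.838, adjusted exact p = 0.00189), and 17.2% in the next ranks (adjusted exact p = 0.358). Without small-RNA summits the shares were 18.6% in members and 20.4% in the IDR ranks and no longer differed beyond the threshold (adjusted exact p = 0.666). With each distinct tRNA sequence counted once they were 19.1 and 21.98% (adjusted exact p = 0.415), and the 791 ranks directly above held 21.6% (adjusted exact p = 0.511). Chromosome V holds 25.004% of the genes, above its share of members. On the autosomes 39.8% of members lay in the central part of a chromosome, where 38.1% of autosomal gene starts lie.

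The members at small-RNA genes comprised 30 at tRNA, 8 at snoRNA and 11 at snRNA genes. tRNA genes numbered 612, of which 399 had an IDR summit within 100 bp and 31 a member summit. Of the 213 without an IDR summit, 29 (13.6%) were reached by a member, and 17 more by the next ranks alone. They included 6 of the 19 proline tRNA genes without an IDR summit, and 3 each of 20 arginine, 14 glutamine, 12 isoleucine, 10 lysine and 11 valine genes. For 24 of them other genes hold the identical sequence, so reads may be shared between copies, and 5 have a sequence of their own. The median member summit lay 33 bp into the tRNA gene, against 14 bp in the IDR ranks.

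The 4 highest-ranked tRNA members showed how replicates differed at such genes. At the leucine gene WBGene00023129 (II:2736276-2736357) signal was 97.4 in the pooled list, 50.8 in replicate 1 and 49.8 in replicate 2. At the aspartate gene WBGene00023011 (X:8152546-8152617) it was 96.96, 58.6 and 49.8. At the lysine gene WBGene00014551 it was 95.5, 72.6 and 24.5. The lysine gene had the widest gap in rank of these 3, with 952 and 4973. At the glutamine gene WBGene00014420, whose sequence occurs in 1 gene, signal was 95.4 pooled, 58.5 in replicate 1 and 36.1 in replicate 2.

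The snRNA members included 3 genes of the sls-2 group, which encode the spliced leader SL2 RNA that is joined to the messages of downstream genes in operons. At sls-2.8 (III:12250465-12250575) signal was 94.5 pooled, 76.8 in replicate 1 and 26.3 in replicate 2, and at sls-2.3 it was 77.3, 81.4 and 24.5. Both ranked higher in replicate 1, at 855 and 762, than in replicate 2, at 4315 and 4998. T08G5.11 had 92.9, 52.3 and 39.6, and Y57G11C.35 had 92.8, 46.9 and 44.7. F54D8.7 (IV:4864635-4864735) had 89.5 pooled and 37.6 in replicate 2, with no replicate 1 peak.

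Of the 8 snoRNA members the highest-ranked was at Y74C9A.6, near the left end of chromosome I, with 96.2 pooled, 59.2 in replicate 1 and 36.8 in replicate 2. Y53F4B.47 had 93.7, 62.2 and 28.8. T06D8.11 had 89.002, 40.6 and 48.4, and F59G1.14 had 87.3, 43.2 and 43.9. Both ranked higher in replicate 2, at 1261 and 1533, than in replicate 1, at 2908 and 2590. Member summits lay a median of 53.5 bp past the snoRNA start, against a median of −29 bp in the IDR ranks. The 8 members are too few for that to be more than a description. A gene annotated as ncRNA, a mixed class, lay within 100 bp of 12.5% of members, 27.7% of IDR summits and 9.36% of the next ranks, which was not tested.

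The start windows with a member summit belonged to 494 protein-coding genes, 2.47% of the 19973 on nuclear chromosomes. The IDR ranks reached 719 genes (3.6%) and the next ranks 456 (2.28%). Of the 494 genes, 427 had no IDR summit at a start and 67 had both. A single gene was in range for 333 of the 419 members, a pair for 81 and 3 or more for 5. A summit in range of neighbouring genes counts for each, also where both lie on the same strand, as xrn-2 and rpl-43 do. Leaving out small-RNA summits, the median offset from the nearest start was −186 bp (quartiles −420 and −17 bp), 76.7% lay upstream and 44.4% within 200 bp. In the next ranks the median was −132 bp, with 71.0% upstream.

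The highest-ranked members at starts, in order, were F22H10.3, pigq-1, D2096.7, F57G12.1, sprr-2, ZK673.2, Y71F9AL.9, R193.2, sma-9, xrn-2, mek-1, aakg-5, abhd-5.2, gcst-1, scd-1, miz-1, cnp-3, wapl-1, C31H5.6 and ltah-1.2. Over these 20 the signal ran from 31.3 to 81.2 in replicate 1 and from 26.97 to 103 in replicate 2. At sma-9, which encodes a Schnurri-type zinc-finger factor of the BMP pathway that sets body size, signal was 98.4 pooled, 64.2 in replicate 1 and 37.5 in replicate 2. At xrn-2, for a nuclear exoribonuclease, it was 98.3, 54.8 and 48.4, at a summit shared with the ribosomal gene rpl-43. At mek-1, a MAP kinase kinase gene, it was 98.3, 51.4 and 36.9. These 3 ranked between 1239 and 2188 in both replicate lists. At aakg-5, for a regulatory subunit of AMP-activated kinase, it was 98.2, 61.6 and 30.8. At gcst-1, for a glycine cleavage enzyme, the values were 97.9, 59.4 and 36.8. At wapl-1, which encodes a factor that releases cohesin from chromatin and shares its summit with the histone variant gene htz-1, it was 97.2, 42.0 and 59.0, with the higher rank in replicate 2 (841 against 2728). pigq-1, of glycolipid anchor synthesis, had 98.8 pooled, 31.3 in replicate 1 and 67.0 in replicate 2, ranks 4777 and 641. Of the 20, D2096.7 and ltah-1.2 also had an IDR summit at a start.

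The genes of 29 lists were then counted. Each count is read beside the 2.47% of all protein-coding genes with a member summit, and no list was tested. In some lists the next ranks reached more genes than the members, such as vacuolar ATPase (6 against 3) and cathepsins (4 against 1). In others they reached fewer, such as heat-shock proteins (2 against 6) and translation factors (1 against 4). Ribosomal protein and translation factor genes come first. Of 50 large-subunit ribosomal protein genes 8 (16%) had a member summit, 14 an IDR summit and 6 (12%) a summit of the next ranks. For some of the 8 another start was nearer. The rpl-30 summit had an offset of −984 bp, against −32 bp for pab-1, and the rpl-43 summit 353 bp, against −121 bp for xrn-2. The rpl-32 member overlapped an IDR peak. Of 32 small-subunit genes 2 (6.25%) had a member summit, 9 an IDR summit and 4 (12.5%) a summit of the next ranks. rpl-1 had a signal of 98.5 pooled, 65.9 in replicate 1 and 43.9 in replicate 2, and its summit was shared with Y71F9AL.9. rps-23 had 88.4, 49.2 and 39.5. rps-26 had 84.8, 49.5 and 36.3, with a snoRNA gene beside the summit and an overlapping IDR peak. Among 43 translation factor genes 4 (9.30%) were reached, including eef-2, for elongation factor 2, with 92.6 pooled, 70.2 in replicate 1 and 21.6 in replicate 2. The cap-binding gene ife-2 had 93.3, 60.4 and 32.9. Mitochondrial ribosomal proteins had 3 of 70 genes, with mrps-23 first at 91.4, 49.9 and 41.4, and aminoacyl-tRNA synthetases 1 of 31, aars-1 for alanine, at 77.7, 66.8 and 18.7.

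Stress and folding genes were the next group. Of 29 stress and immune regulators 6 (20.7%) had a member summit, as many as had an IDR summit. The next ranks reached nearly as many, 5 (17.2%). The 6 with a member summit were hlh-30, egl-9, zip-2, atfs-1, atf-7 and tir-1, and zip-2 had an IDR summit too. At hlh-30, the homolog of the lysosome and autophagy regulator TFEB, signal was 96.9 pooled, 49.03 in replicate 1 and 45.6 in replicate 2. At egl-9, the oxygen-dependent prolyl hydroxylase of the hypoxia pathway, it was 92.5, 41.6 and 53.1. At atfs-1, the activator of the mitochondrial unfolded protein response, it was 89.5, 58.6 and 25.2. Heat-shock protein genes had 6 of 49 (12.2%), including hsp-6, the mitochondrial Hsp70 gene, at 84.9, 31.6 and 50.3. hsp-110 shared a summit with the proteasome subunit gene rpn-3, at 92.5, 27.9 and 67.4, with a replicate 2 peak that also served another member. The endoplasmic reticulum chaperone list stood differently, with 13 of 26 genes at an IDR summit and only sec-61.B at a member summit (77.0, 44.2 and 38.9), which had an IDR summit as well.

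Histone genes had 6 of 59 (10.2%). htz-1, his-37, his-70 and his-24 ranked highest, and his-63 and his-64 share 1 summit. Histone genes of 1 type are nearly identical, so reads may be shared between copies. Vacuolar ATPase genes, for the pump that acidifies lysosomes, had 3 of 20 (15%), against 4 in the IDR ranks and 6 (30%) in the next ranks. vha-20 had 88.1, 49.8 and 39.8, vha-10 had 85.1, 56.5 and 20.8, and vha-19 had 77.6, 32.2 and 37.2, and vha-10 had the widest gap in rank, with 1583 and 7019. The cathepsin list had 1 of 28, cpl-1, at 82.6, 51.6 and 33.9.

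Nuclear hormone receptor genes, the family of NHR-90 itself, had 8 of 274 (2.92%) with a member summit, near the 2.47% of all genes, and 10 with an IDR summit. nhr-40 had 95.4 pooled, 54.3 in replicate 1 and 39.3 in replicate 2, nhr-142 had 92.9, 64.1 and 28.9, and nhr-3 had 92.0, 48.4 and 45.9. nhr-49, a regulator of fat metabolism, had 89.3, 44.3 and 43.8 and an IDR summit at a start too. The other 4 were nhr-178, nhr-8, nhr-34 and nhr-64. Basic helix-loop-helix proteins of the Myc, Mondo and Mad families and their relatives had 3 of 9 genes, hlh-30, hlh-11 and mxl-3. mxl-3 had 88.7, 56.9 and 37.9. With 9 genes the exact 95% interval of that share runs from 7.49 to 70.1%.

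In metabolism and detoxification, 3 of 56 fatty acid genes had a member summit. fat-6, for a stearoyl-CoA desaturase, had 89.8, 53.9 and 32.4, and acs-1, for an acyl-CoA synthetase, had 81.1, 30.2 and 54.6. The third was nhr-49. UDP-glucuronosyltransferases had 3 of 67, led by ugt-44 at 93.8, 54.7 and 36.4. Glutathione S-transferases had 2 of 49, of which gst-1 (77.4, 22.1 and 57.9) ranked 9822 in replicate 1 and 869 in replicate 2. None of 75 cytochrome P450 genes and none of 27 insulin and TOR genes had a member summit, where 2 and 3 had an IDR summit. The next ranks reached 3 genes of each list. The exact intervals of the member shares run up to 4.8 and 12.8%, so both include the 2.47% of all genes.

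Some large gene families were rarely reached, with 3 of 1353 chemoreceptor genes (0.222%), 1 of 351 F-box and MATH-BTB genes (0.285%), 1 of 237 C-type lectin genes (0.422%) and 1 of 176 cuticle collagen genes (0.568%). All were under the 2.47% of all genes, though the collagen interval, 0.0144 to 3.12%, includes it. In this order the IDR ranks reached 0.591, 1.14, 1.27 and 2.27%, against 3.6% of all genes. The next ranks reached 0.370, 0.855, 0.422 and 1.14%, against 2.28%. Tissue marker lists are short and gave few genes. At 18 to 28 genes a list, any gene reached already puts the share above the 2.47% of all genes. The shares were 11.1% for intestine, 5.56% for pharynx, 4.35% for neurons and 4.17% for body wall muscle. Their exact intervals all included 2.47%. Intestine markers had 3 of 27: pept-1, the gut peptide transporter, with 90.9, 60.3 and 31.1, fat-6, and act-5, the actin of intestinal microvilli, with 86.9, 60.4 and 29.5. The next ranks also reached 3 of the 27 intestine markers. The neuron, pharynx and body wall muscle lists had 1 each, snb-1 for synaptobrevin, pha-4 for the FoxA factor of pharynx and gut, and act-4. The germline (28 genes) and hypodermis (22 genes) lists had none. Their exact intervals, which run up to 12.3 and 15.4%, include 2.47% as well.

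**Figure D4:**
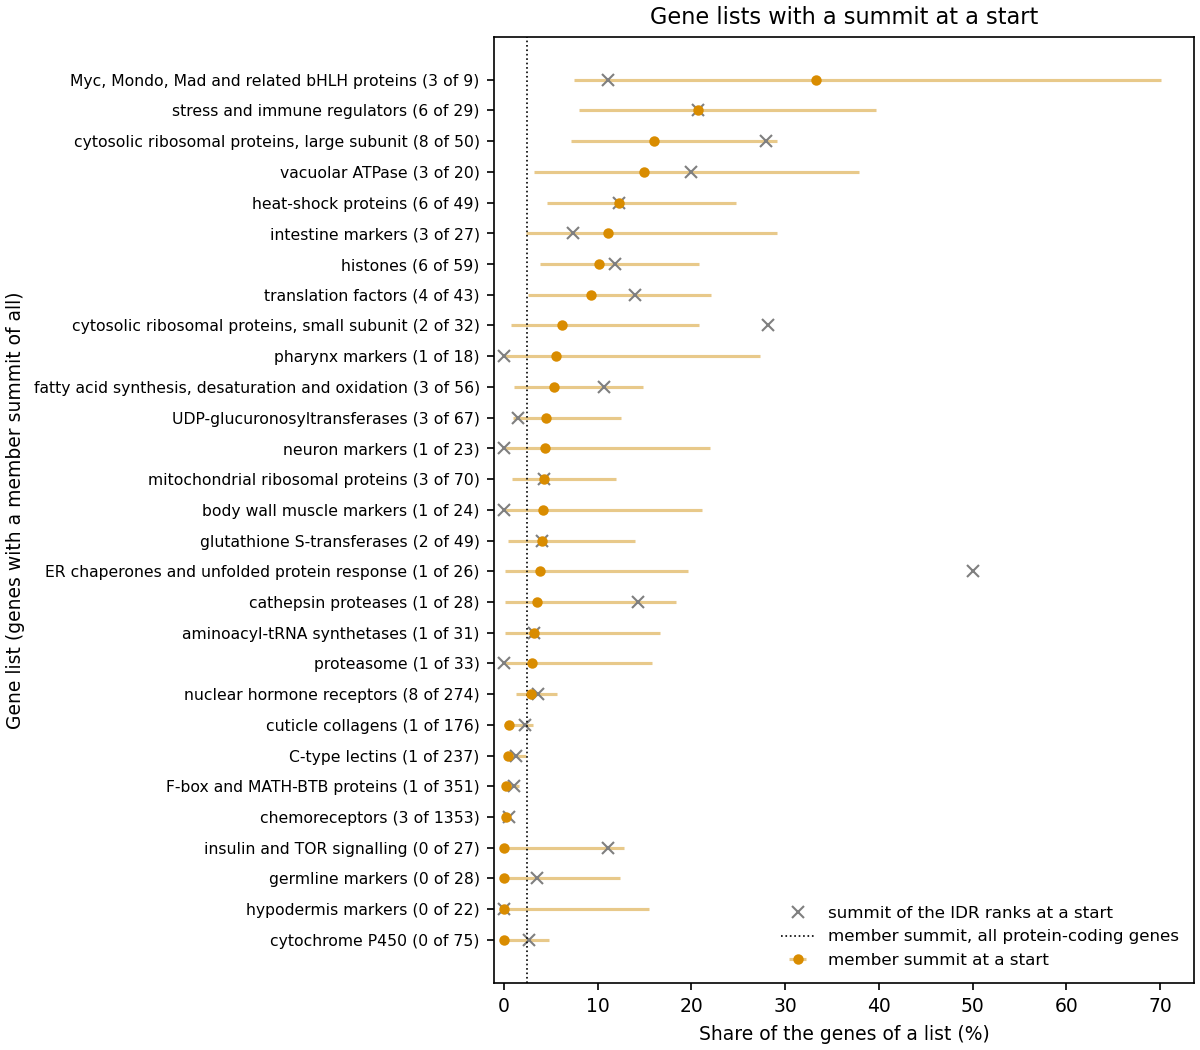
Share of the genes of each of 29 lists (%) with a member summit in a start window (orange points, exact 95% intervals as lines) and with a summit of the IDR ranks (grey crosses). The dotted line is the 2.47% of all protein-coding genes with a member summit. Most lists hold under 6 such genes and their intervals are wide, and the endoplasmic reticulum list stands out by its IDR share of 50%.

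The bases at the summits were compared with those beside them, a comparison that the signal rank did not use. For each of 12 short motifs, both strands of the 100 bp centred on the summit were searched and set against the 100 bp centred 500 bp further along the chromosome. Differences were tested by the exact McNemar test over the 791 pairs of windows, two-sided, with Benjamini-Hochberg adjustment over the 12 motifs. Again the units are peaks, and a match is a description of the letters.

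Of the motifs 5 were more frequent at the summits. GAGAGAG, the repeat shown at miz-1, was in 76 summit windows (9.61%) and 1.26% of flanks (adjusted exact p = 5.17e-13). It was in 3.41% of all 29981 nuclear summit windows of the pooled list. TGATAA, the site that GATA factors such as the intestinal regulators bind, was in 15.3% and 8.72% (adjusted exact p = 0.000133), and in 9.75% of all windows. CACGTG, the E-box bound by helix-loop-helix factors, was in 4.68% and 0.885% (adjusted exact p = 1.40e-05), and in 3.04% of all windows. GGGCGG was in 6.07% and 1.39% (adjusted exact p = 4.51e-06), and in 3.395% of all windows. GGGTGTG was in 11 summit windows and 2 flanks (adjusted exact p = 0.0385), and in 0.670% of all windows. This last call was lost with the flank taken upstream, with 200 bp windows and in each replicate's own list.

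At least 1 of these 5 motifs was in 261 members (33.0%), 28.3% of the IDR ranks and 31.1% of the next ranks. The GA repeat was in 14.6% of distal members and 9.68% of members at gene starts, and the E-box in 5.26 and 4.22%. Summit windows averaged 44.8% G and C (SD 8.80 over 791 windows) against 36.0% in the flanks, and 48.3% in the IDR ranks. Base composition thus differed between summits and flanks. The 5 motifs were those more frequent at member summits, and 32.8% of IDR summits lay at small-RNA genes. The comparison of motif shares between members and IDR ranks was not adjusted for either. The part of base composition in the motif shares was not tested.

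Motifs of other kinds gave other answers. TTTTTTTT was less frequent at the summits than beside them (5.56 against 12.3%, adjusted exact p = 1.15e-05), as was GAANNTTC, the core of heat-shock elements (2.53 against 7.33%, adjusted exact p = 1.40e-05). Over all nuclear windows they were in 7.99 and 5.89%. The second call was lost in replicate 2's own list, at 4.55 against 5.56% (adjusted exact p = 0.514). AGGTCA, the half-site that many nuclear receptors bind, was in 3.54% of summits and 3.29% of flanks (adjusted exact p = 0.968), and in 2.73% of all windows. The B box core GGTTCGA was in 2.40% of member summits and 12.1% of IDR summits, and in members its excess over the 1.26% of flanks did not pass (adjusted exact p = 0.163). It did pass with the flank taken upstream (adjusted exact p = 0.00446) and in each replicate's own list (adjusted exact p = 5.01e-06 for replicate 2 and 0.00428 for replicate 1). The remaining 3, TCACGTGA, which contains the E-box, TGACGTCA and CCAAT, were in 0.506, 0.253 and 17.1% of summits, in 0.227, 0.700 and 19.4% of all windows, and were not called (adjusted exact p = 0.163, 1 and 0.163).

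**Figure D5:**
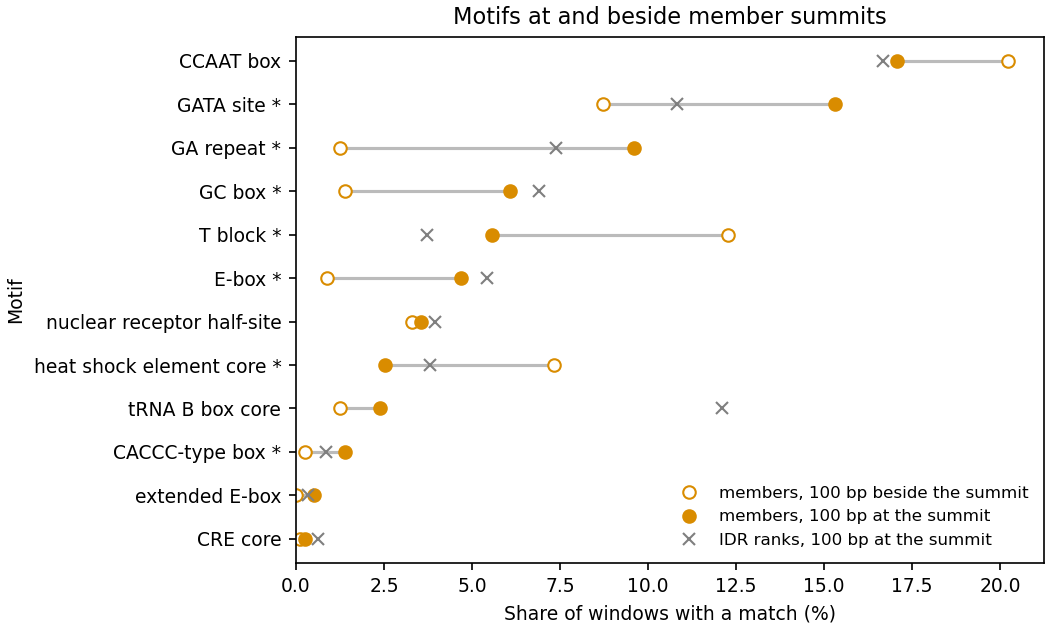
Share of 100 bp windows (%) with a match to each of 12 motifs at the summits of the 791 members (filled points), 500 bp beside them (open points) and at the summits of the IDR ranks (crosses). A star marks a difference between summit and flank at an adjusted p below 0.05, 5 with more matches at the summit and 2 with fewer.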

How the data were processed

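Peak lists were used as the authors deposited them, per the text records beside the samples: 1 list for each of the 2 replicates, 1 from both together, and the IDR list derived from these, each on ce11 and ce10. Which peak caller, aligner and IDR cutoff were applied is not given in the sources used here. A control that the labels name was not used here. The deposited columns used were the signal value, whose scale is not stated, the −log10 q-value, and the summit offset from the peak start. They hold no counts, so depth is unknown.

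Peaks were ordered by signal, ties by chromosome and start. Summits were placed on Ensembl release 115 genes of WBcel235, the assembly of ce11, and bases were read from the RefSeq WBcel235 genome. Chromosome names were matched, and no coordinates were converted between builds. Of 612 tRNA genes, 607 matched RefSeq genes by position. A replicate peak matched a member when at least 1 bp overlapped, taking the nearest summit. Fisher's and McNemar's exact tests and exact (Clopper-Pearson) 95% intervals cover counting only. Odds ratio intervals were computed with 0.5 added to each cell. The threshold was an adjusted p of 0.05. The tests were run first on simulated data. Labels give separate biological replicates but no further origin.

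Genes were named by rule: the 20 highest-ranked start members without a small-RNA gene, up to 4 per gene list and per small-RNA class, peaks at both ends of the ranks, and the 5 best in both replicates. Other genes named, such as those without a peak in one replicate, D2096.7 and WBGene00014380 for unequal replicates, and further list members, were added after their values were seen. No sequence from chromosome I is printed. The window of 1 higher-ranked GA repeat member is not reported here. The members, gene lists and motifs were chosen with earlier results of these data known. Alternatives covered window and distance settings, comparison ranks, members beside IDR peaks, and each replicate alone. Python 3.11.15, NumPy 2.4.6, SciPy 1.17.1, pandas 2.3.3 and matplotlib 3.10.9 were used.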

Additional observations from a re-analysis of the deposited data

How the results depend on the processing

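No paired analysis was possible because the 2 replicates form 1 group. Differences below are members minus the comparison, in percentage points. Setting aside small-RNA summits lowered the gene start difference from the IDR ranks to 2.43 and that of X to −1.80, both then uncalled, and turned the intron (−2.46), coding exon (−0.511) and distal (−2.16) differences. These last 3 values, the ranks just above and the tRNA count were added after seeing the data. Taking as many ranks just above as comparison gave 4.93 for gene starts and −2.28 for X, both uncalled, and −0.632 for introns. Counting distinct tRNA sequences once gave −2.85 for X, uncalled. With ranks 1442 to 1836 alone, X stood at −4.39, uncalled, distal against the next ranks at −0.353, and 1 of the other 6 class comparisons was called instead of 2; fewer peaks were tested. Against all lower ranks the differences were 5.48 for small-RNA genes, 12.1 for gene starts, 6.43 for X, −7.50 for introns and 7.07 for distal, all called. Members with a peak in both replicates were 95.7% when 50% of the length had to be shared, 96.1% with the summit inside, and 30.2% with replicate ranks down to 2232. A start window of 500 bp upstream gave 288 genes instead of 494. A flank upstream turned TGACGTCA (−0.759) and CCAAT (0.126). With 1 replicate left out, the differences ranged from 3.787 to 3.79 for small-RNA genes against the next ranks (called), from −1.04 to 1.87 for distal against the next ranks, and from −0.126 to 0.253 for TGACGTCA. Where no reason is given, the cause was not tested. Peaks hold no counts, so depth sets no limit that can be stated.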
